A study of Arabidopsis thaliana with 12 samples.

Results

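Jasmonates are lipid hormones of plants, made from linolenic acid released from plastid membranes and known in seedlings for wound, herbivore and growth responses. Lipoxygenases (LOX), allene oxide synthase (AOS) and allene oxide cyclases (AOC) make oxo-phytodienoic acid in the plastid, and OPR3, OPCL1 and beta-oxidation in the peroxisome shorten it to jasmonic acid. JAR1 joins jasmonic acid to isoleucine, and this conjugate brings the F-box protein COI1 together with the JAZ repressors, which are then degraded, so that MYC transcription factors act on response genes such as VSP1. JAZ genes and several synthesis genes are themselves MYC targets.

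The genes described here are 35 of the 28642 in the deposited table, chosen by name for their step in this pathway with no threshold on a measured value. They comprise 12 synthesis genes, 3 for conjugation and turnover, 13 for perception and repression, 3 transcription factors and 4 response markers. Transcripts were measured by RNA-seq in whole wild-type Arabidopsis thaliana seedlings, 14 days old, 90 min after exposure to an acyl-CoA, a fatty acid linked to coenzyme A by a thioester bond. The 3 treated groups received stearoyl-CoA (C18:0 CoA, saturated), oleoyl-CoA (C18:1 CoA, the same chain length with 1 double bond) or palmitoyl-CoA (C16:0 CoA, saturated and 2 carbons shorter), each at 0.1% together with 0.01% of the non-ionic surfactant Pluronic F68. The Control group received 0.01% Pluronic F68 alone. All groups were grown in liquid MS medium of reduced strength with 0.5% sucrose under 16 h light and 8 h dark, and each of the 3 replicates per group was a pool of 80 plants.

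Libraries held 348140 to 6126277 exon reads, and 3 were under 1000000: replicate 2 of C18:0 CoA, replicate 1 of C18:1 CoA and replicate 2 of C16:0 CoA. A count of 3 reads, the limit that a count of 0 allows, equals 0.490 to 8.62 CPM (exon reads scaled to a library of 1000000) depending on the library, for counting error alone. That range is from unadjusted library totals, while the CPM values of genes below use library sizes adjusted by TMM scaling. The 35 genes together took 0.0757% to 0.0878% of the exon reads of a library. The libraries carried 1 of 2 i7 sequencing indexes. All Control and C18:0 CoA libraries and C18:1 CoA replicates 1 and 2 had one, while C18:1 CoA replicate 3 and all C16:0 CoA libraries had the other, so C16:0 CoA and index cannot be told apart without a covariate that rests on C18:1 CoA replicate 3. All 7 shoot markers fixed for the check were read in every library, as were 5 of 6 root markers.

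The pathway was transcribed in all groups, and no gene of it passed the test at 90 min, the only time measured, with any of the 3 acyl-CoAs. None of the 27 jasmonate genes with enough reads to test passed the threshold against Control with C18:0 CoA, C18:1 CoA or C16:0 CoA (0 of 27 each, beside 0% of the 17036 genes tested). The member with the largest fitted difference was VSP1, a vegetative storage protein gene and a classical jasmonate response marker. It was at 0.446 ± 0.309 CPM (SD, n = 3) in Control, 4.12 ± 1.97 with C18:0 CoA, 2.33 ± 0.558 with C18:1 CoA and 3.34 ± 3.27 with C16:0 CoA. At an unadjusted p under 0.05 against Control, the synthesis genes LOX2 and AOC2 had lower fitted levels with C16:0 CoA and AOS with C18:1 CoA, and the turnover gene CYP94C1 had higher ones with C18:1 CoA and C16:0 CoA. No JAZ repressor gene had an unadjusted p under 0.05 against Control.

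The test was edgeR's quasi-likelihood test with Benjamini-Hochberg adjustment over all 17036 genes. Each adjusted p of the 27 genes was 0.988 or more. At an unadjusted p under 0.05 there were 2 of 27 with C18:0 CoA beside 1.88% of all genes, 3 of 27 with C18:1 CoA beside 1.99%, and 4 of 27 with C16:0 CoA beside 4.03%. VSP1 is 1 of the genes in each of these counts, and it met the filter on low counts only through treated libraries. With DESeq2 the counts were 1, 2 and 3 of 27, beside 1.67%, 1.84% and 3.93% of all genes, and none of the 27 passed after adjustment. For the mean of the 3 acyl-CoAs against Control there were 3 of 27, CYP94C1, MYC2 and VSP1, beside 2.49%, and for any difference among the 4 groups 1 of 27, VSP1, beside 1.74%, with 0% of all genes past the adjusted threshold in both. Because all 3 are set against the same Control libraries, their counts are not independent. In simulated data for C18:0 CoA against Control, the fit recovered 40% of genes changed by 1 on the log2 scale. It recovered 96% of those changed by 2 and 100% of those changed by 3. The 200 changed genes all lay above a limit on mean count. These shares therefore need not hold for genes with few reads, such as VSP1 and JAZ10, nor for data in which fewer genes change. Whether these shares hold for genes with a wider spread between replicates than other genes of the same level was not tested. The median log2 fold change of the 27 genes was -0.01, -0.07 and 0.01 for C18:0 CoA, C18:1 CoA and C16:0 CoA against Control, beside 0.00 for all genes in each. A positive log2 fold change was found for 13, 11 and 14 of the 27, beside 50.4%, 50.4% and 49.9% of all genes. The 95% intervals reached 0.66, 0.67 and 0.68 to either side of the estimate on the log2 scale (medians), and 16, 14 and 14 of the 27 intervals lay wholly between -1 and 1. Since whole seedlings were pooled, fewer cells expressing a gene and less RNA per cell cannot be told apart in these values.

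**Figure D1:**
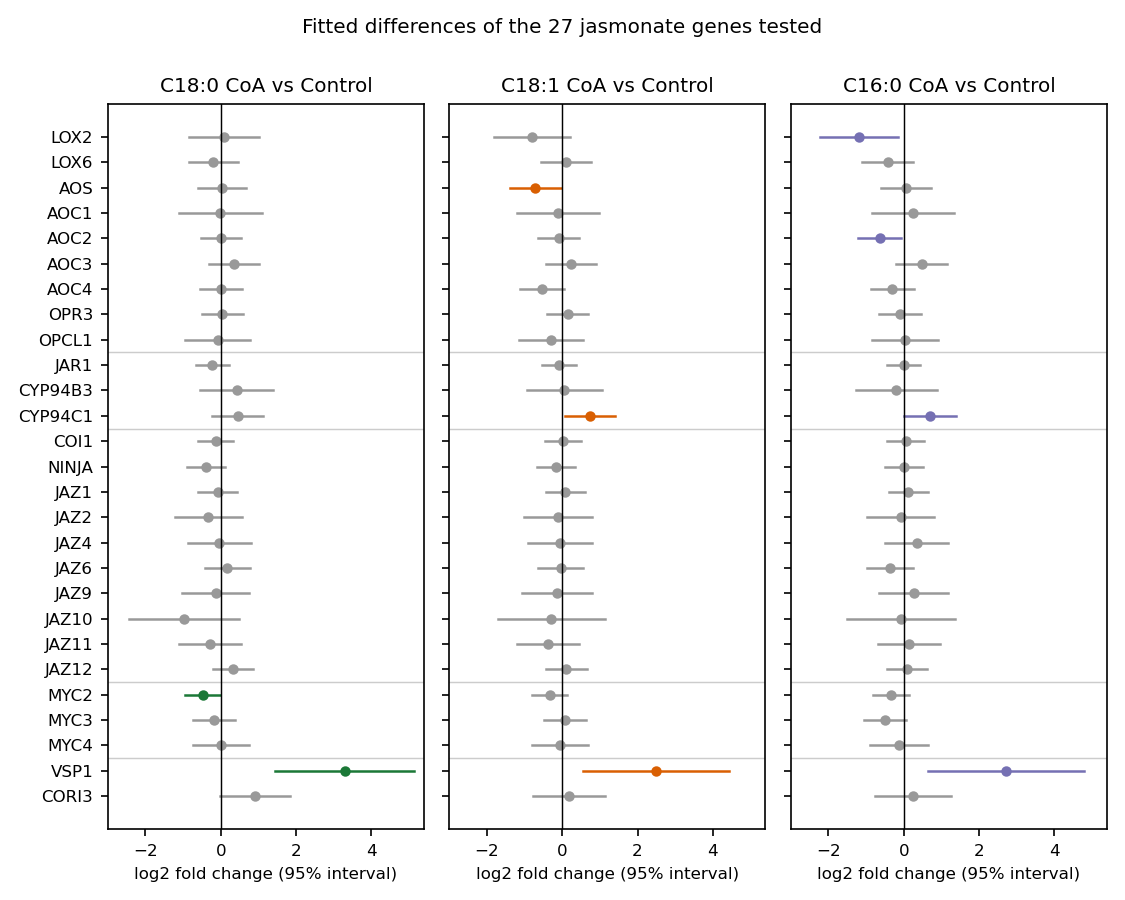
Fitted log2 fold changes (points) with 95% intervals (lines) of the 27 jasmonate genes tested, for each acyl-CoA against Control, with the genes ordered by step. Coloured genes have an unadjusted p under 0.05, which holds for 2, 3 and 4 of 27, and none of them passed after adjustment over all genes.

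Levels were set against each other per length, as RPKM (CPM per kilobase of exon, mean of the 12 libraries). The highest were JAZ12 at 61.5, NINJA, an adaptor that links JAZ proteins to a co-repressor, at 46.3, AOC2 at 37.5, JAZ1 at 32.8 and AOC4 at 31.8 RPKM. The median of the genes of a step was 12.1 RPKM for synthesis, 9.61 for conjugation and turnover, 13.7 for perception and repression, 18.7 for the transcription factors and 1.33 for the response markers. The receptor COI1 stood at 18.1 RPKM, near MYC2 at 18.7 and below JAR1 at 24.7. Of the 34 jasmonate genes with reads, 18 were above the median of all genes with reads, beside 50% of those genes by definition.

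The other 8 genes were below the filter on low counts and were not tested. DAD1, a lipase active in flowers, had 0 reads in all 12 libraries. LOX3 and LOX4, lipoxygenases known from wounding, had 39 and 61 reads over the 12 libraries. The repressor genes JAZ5, JAZ7 and JAZ8 had 60, 21 and 3 reads, and the markers VSP2 and TAT3, a tyrosine aminotransferase gene, had 12 and 4. JAZ5, JAZ7 and JAZ8 are known as strongly jasmonate-inducible, and none of them exceeded 5.33 CPM in any library.

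**Figure D2:**
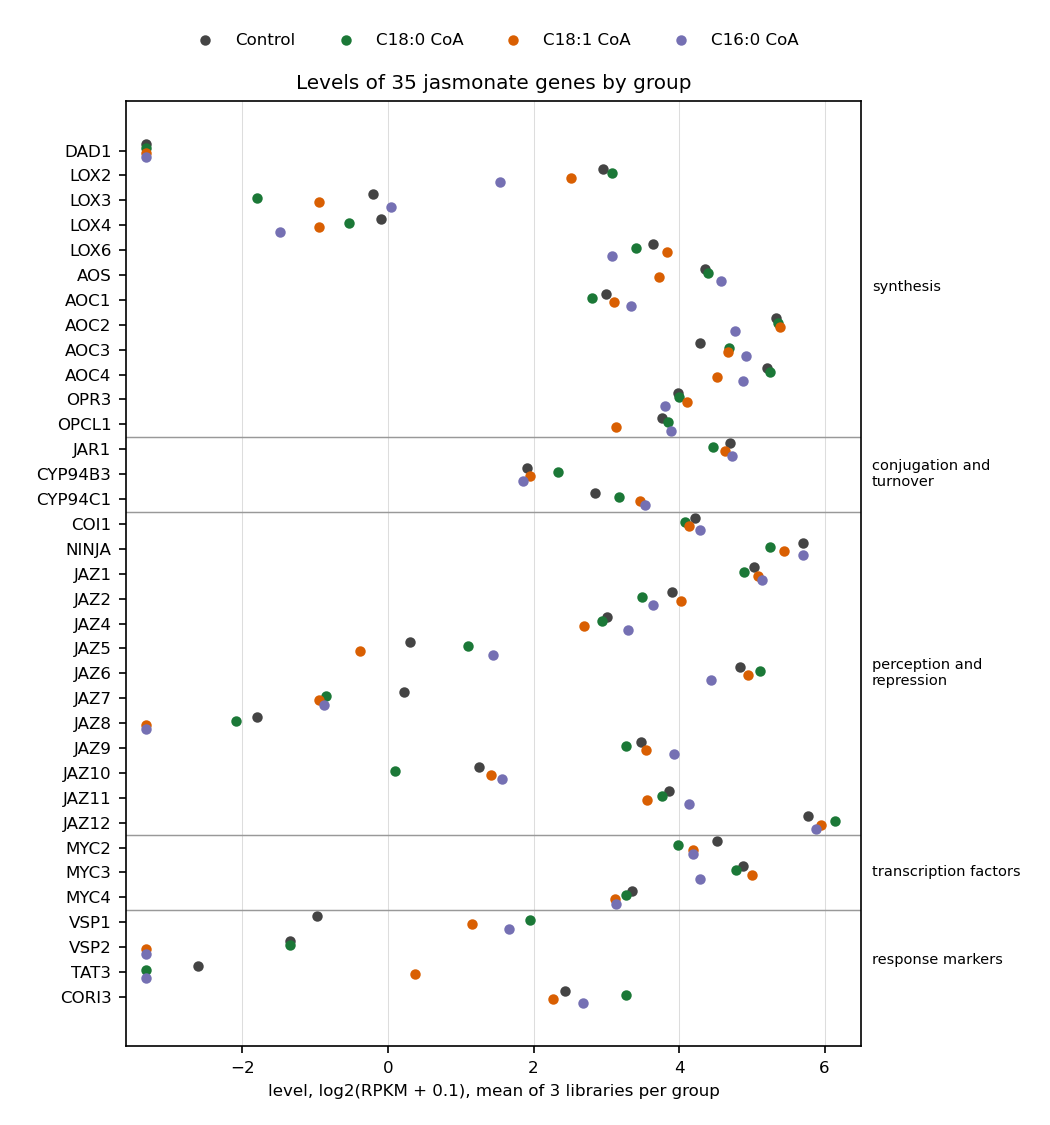
Mean level of each of the 35 jasmonate genes per group, as log2(RPKM + 0.1), with genes ordered by step and groups by colour (mean of 3 libraries each). Genes with no read sit at the left edge, as DAD1 does in all groups, and for most genes with reads the 4 group means lie close together, with VSP1 showing Control to the left of the 3 acyl-CoA groups.

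Synthesis was read in 12 genes, of which 9 were tested. The summed level of the 12 was 265 ± 8.11 CPM in Control, 269 ± 18.1 with C18:0 CoA, 232 ± 16.6 with C18:1 CoA and 234 ± 29.9 with C16:0 CoA. The median log2 fold change of the 9 against Control was 0.01, -0.11 and -0.11 in that order of treatments.

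LOX2 (AT3G45140, chromosome 3: 16525410-16529352, TAIR10), the plastid lipoxygenase of the first step, read 19.0, 29.0 and 16.99 CPM in Control replicates 1 to 3. It read 19.99, 22.8 and 28.3 CPM for C18:0 CoA, 26.6, 6.17 and 15.0 for C18:1 CoA, and 12.2, 0 and 11.8 for C16:0 CoA. All 3 C16:0 CoA libraries lay below all Control and all C18:0 CoA libraries, and the 0 comes from a library in which 3 reads equal 5.33 CPM. Libraries apart in this way occurred for 2 of 27 jasmonate genes in the lower direction, LOX2 and MYC3, beside 5.95% of all genes. The fitted log2 fold change with C16:0 CoA was -1.18 (95% interval -2.21 to -0.14, edgeR unadjusted p = 0.0278, adjusted p = 0.988), and -0.89 without C16:0 CoA replicate 2. Adding the i7 index to the model gave -1.68 at an unadjusted p of 0.0915. With C18:1 CoA it was -0.80 (interval -1.81 to 0.21, unadjusted p = 0.114) and with C18:0 CoA 0.10 (interval -0.83 to 1.03).

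AOS (AT5G42650, chromosome 5: 17097595-17099395), the single allene oxide synthase gene, read 45.0, 34.5 and 30.9 CPM in Control, 34.9, 35.1 and 43.6 for C18:0 CoA, 26.6, 17.6 and 26.5 for C18:1 CoA, and 29.7, 71.0 and 27.6 for C16:0 CoA. The 3 C18:1 CoA libraries were below every library of the other groups, and the share of all genes with this pattern was not counted. C18:1 CoA replicate 1, the shallowest library, held 9 AOS reads. C16:0 CoA replicate 2, another shallow library with 40 AOS reads, was above all others. Against Control the log2 fold change with C18:1 CoA was -0.71 (95% interval -1.39 to -0.04, edgeR unadjusted p = 0.0393). Restricted to libraries with the Control's index it was -0.94 at an unadjusted p of 0.00874. It was -0.50 without C18:1 CoA replicate 2. Libraries apart below Control occurred for 1 of 27 genes with C18:1 CoA, AOS itself, beside 5.15% of all genes. The 250 bases before the AOS start in RefSeq (TAIR10.1, chr5:17099596-17099845, minus strand) are shown because they hold the G-box CACGTG, in capitals, the motif that MYC proteins are known to bind.
AOS promoter: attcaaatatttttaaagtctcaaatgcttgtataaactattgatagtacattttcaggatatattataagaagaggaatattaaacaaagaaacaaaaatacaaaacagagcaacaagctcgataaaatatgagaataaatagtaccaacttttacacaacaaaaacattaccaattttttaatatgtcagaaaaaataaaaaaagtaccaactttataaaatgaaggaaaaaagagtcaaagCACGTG

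AOC2 (AT3G25770, chromosome 3: 9406873-9407955), the allene oxide cyclase gene with the highest level of its family, read 38.1, 48.9 and 31.7 CPM in Control and 36.8, 38.6 and 45.2 for C18:0 CoA. It read 53.1, 42.0 and 27.2 CPM for C18:1 CoA and 23.9, 32.0 and 24.3 for C16:0 CoA. The C16:0 CoA libraries were below all C18:0 CoA libraries, and 1 of them overlapped the Control. The log2 fold change of C16:0 CoA was -0.64 against Control (95% interval -1.21 to -0.06, edgeR unadjusted p = 0.0314). With the i7 index as a covariate that value was 0.11 at an edgeR unadjusted p of 0.812, so its direction turned. The covariate rests on C18:1 CoA replicate 3, the lowest of its group, so index and C16:0 CoA cannot be told apart here.

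None of the other AOC genes had an unadjusted p under 0.05 in a pair of groups. AOC3 was at 19.7 ± 1.67 CPM in Control, 25.8 ± 1.93 with C18:0 CoA, 25.5 ± 7.23 with C18:1 CoA and 30.4 ± 15.2 with C16:0 CoA, and its C18:0 CoA libraries lay above all Control libraries. AOC4 was at 46.4 ± 14.6 CPM in Control and 28.8 ± 7.43 with C18:1 CoA, a log2 fold change of -0.54 (95% interval -1.12 to 0.03). AOC1 ranged from 1.75 to 12.4 CPM over the 12 libraries. The coding sequences of AOC1 and AOC2 are 90.3% identical and share 0 of 716 windows of 50 bases, while AOC1 and AOC3 share 3.35% of them, so few reads of 50 bases could be placed on the wrong gene. OPR3, the reductase of oxo-phytodienoic acid, read 22.4, 28.8 and 26.3 CPM in Control, 25.04, 22.8 and 30.3 for C18:0 CoA, 26.6, 28.1 and 29.7 for C18:1 CoA, and 28.4, 16.0 and 23.7 for C16:0 CoA. Its groups overlapped throughout. LOX6, another plastid lipoxygenase, and OPCL1, a CoA ligase, ranged from 7.10 to 50.2 and from 0 to 42.1 CPM over the libraries.

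Conjugation and turnover of the hormone were read in 3 genes, all tested. JAR1 (AT2G46370), the enzyme that makes the active jasmonoyl-isoleucine, read 68.3, 68.1 and 61.0 CPM in Control, 60.4, 50.9 and 56.9 for C18:0 CoA, 64.9, 74.7 and 48.5 for C18:1 CoA, and 59.4, 78.1 and 63.7 for C16:0 CoA. The C18:0 CoA libraries were just below all Control libraries, at a log2 fold change whose interval included 0. Libraries apart below Control occurred with C18:0 CoA for 3 of 27 jasmonate genes, JAR1, COI1 and MYC2, beside 6.47% of all genes, and above Control for 3 of 27, AOC3, CYP94B3 and VSP1, beside 5.88%.

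CYP94C1 (AT2G27690, chromosome 2: 11809306-11811215) encodes a cytochrome P450 that oxidises jasmonoyl-isoleucine towards its inactive carboxylated form. It read 14.9, 11.0 and 14.7 CPM in Control, 18.1, 10.5 and 22.6 for C18:0 CoA, 14.8, 28.7 and 19.2 for C18:1 CoA, and 23.0, 23.1 and 19.7 for C16:0 CoA. The C16:0 CoA libraries lay above all Control libraries, as did those of VSP1, 2 of 27 jasmonate genes beside 5.44% of all genes. The log2 fold change was 0.70 with C16:0 CoA (95% interval 0.01 to 1.39, edgeR unadjusted p = 0.0465) and 0.74 with C18:1 CoA (interval 0.07 to 1.41, unadjusted p = 0.0321). With C18:0 CoA it was 0.45 (interval -0.22 to 1.13). Within the Control's i7 index the C18:1 CoA value was 0.89, while adding the index to the model moved the C16:0 CoA value to 1.06 at an unadjusted p of 0.0922. CYP94B3, the hydroxylase that acts before it, was at 6.21 ± 0.673 CPM in Control, 8.39 ± 0.622 with C18:0 CoA, 6.36 ± 1.49 with C18:1 CoA and 5.96 ± 3.38 with C16:0 CoA.

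Perception and repression were read in 13 genes, of which 10 were tested, and none had an unadjusted p under 0.05 in any of the 6 pairwise comparisons of groups. The summed level of the 13 was 357 ± 17.8 CPM in Control, 337 ± 13.9 with C18:0 CoA, 347 ± 12.7 with C18:1 CoA and 369 ± 23.2 with C16:0 CoA. COI1 (AT2G39940), the receptor, read 42.5, 44.8 and 46.3 CPM in Control, 41.1, 38.6 and 40.8 for C18:0 CoA, 26.6, 52.8 and 45.9 for C18:1 CoA, and 46.4, 53.3 and 40.6 for C16:0 CoA. NINJA was at 101 ± 18.8 CPM in Control and 74.3 ± 19.1 with C18:0 CoA, a log2 fold change of -0.39 (95% interval -0.89 to 0.11).

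Of the 11 JAZ genes 8 were tested. JAZ1 (AT1G19180), an early-response repressor gene, read 48.5, 53.3 and 47.1 CPM in Control, 39.1, 29.8 and 67.0 for C18:0 CoA, 47.2, 58.0 and 49.9 for C18:1 CoA, and 55.4, 49.7 and 55.8 for C16:0 CoA, and every treated group overlapped the Control. JAZ10 (AT5G13220), a repressor gene often used as a reporter of jasmonate signalling, read 4.60, 5.27 and 0.772 CPM in Control, 2.53, 0 and 2.02 for C18:0 CoA, 5.90, 4.01 and 2.11 for C18:1 CoA, and 1.80, 7.10 and 4.51 for C16:0 CoA. Its log2 fold change with C18:0 CoA was -0.98, the lowest of the 27, with an interval of -2.45 to 0.49. JAZ10 met the filter on low counts in 2 Control, 1 C18:1 CoA and 2 C16:0 CoA libraries and in 0 of C18:0 CoA. Its place as the lowest is therefore a description. Control replicate 3 held 1 JAZ10 read and C18:0 CoA replicate 2 held 0. The other 6 tested JAZ genes, JAZ2, JAZ4, JAZ6, JAZ9, JAZ11 and JAZ12, ranged from 1.78 to 105 CPM over genes and libraries. COI1, JAZ10, JAZ12 and MYC2 overlap a gene on the opposite strand in RefSeq, and the use of strand in the authors' counting is not given in the sources used here, so their counts are less certain.

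The transcription factors were MYC2, MYC3 and MYC4, related bHLH proteins that bind the G-box and are held inactive by JAZ proteins. MYC2 (AT1G32640, chromosome 1: 11798810-11800988) read 40.9, 52.9 and 55.6 CPM in Control, 38.1, 28.1 and 36.3 for C18:0 CoA, 41.3, 40.4 and 37.2 for C18:1 CoA, and 34.7, 44.4 and 40.0 for C16:0 CoA. The C18:0 CoA libraries were below all Control libraries, while in the other treated groups the highest library was above the lowest Control library. Its log2 fold change with C18:0 CoA was -0.48 (95% interval -0.95 to -0.02, edgeR unadjusted p = 0.0417), in libraries that all carry the Control's index. The values with C18:1 CoA and C16:0 CoA were -0.33 and -0.34, with intervals that included 0. The mean of the 3 acyl-CoAs against Control gave -0.38 (interval -0.75 to -0.02, unadjusted p = 0.0407). The 250 bases before the MYC2 start in RefSeq (TAIR10.1, chr1:11801408-11801657, minus strand) are shown because they hold the T/G-box AACGTG, read here on its other strand as CACGTT in capitals, a G-box variant that MYC2 is known to bind.
MYC2 promoter: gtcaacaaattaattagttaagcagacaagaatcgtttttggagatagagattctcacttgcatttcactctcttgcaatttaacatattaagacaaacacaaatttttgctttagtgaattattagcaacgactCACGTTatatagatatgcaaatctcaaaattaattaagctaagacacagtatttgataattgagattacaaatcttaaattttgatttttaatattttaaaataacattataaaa

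MYC3 read 50.0, 49.7 and 56.4 CPM in Control and 41.0, 21.3 and 41.7 for C16:0 CoA, where all libraries were below the Control, at a log2 fold change of -0.50 (95% interval -1.06 to 0.07). With C18:0 CoA and C18:1 CoA it ranged from 39.2 to 66.6 and from 43.1 to 67.9 CPM. MYC4 was at 22.5 CPM on average in Control and between 19.1 and 21.2 CPM on average in the treated groups.

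The response markers held the pathway's largest difference. VSP1 (AT5G24780, chromosome 5: 8507590-8508957) read 0.159, 0.406 and 0.772 CPM in Control, which is 1, 2 and 1 reads. It read 1.84, 5.26 and 5.25 CPM for C18:0 CoA (8, 3 and 13 reads), 2.95, 2.16 and 1.87 for C18:1 CoA (1, 7 and 8 reads) and 1.80, 7.10 and 1.13 for C16:0 CoA (4, 4 and 2 reads). The filter asked for 4.28 CPM in at least 3 libraries, and VSP1 met it in exactly 3, of which 2 were of C18:0 CoA, 1 of C16:0 CoA and 0 of Control. It was therefore tested because it was high in treated libraries, and its p-values and its place among the tested genes are a description. All 9 treated libraries were above all 3 Control libraries, which without the filter held for 1 of the 34 jasmonate genes with reads, VSP1, and for 0.365% of the 22194 genes with reads. With C18:1 CoA, libraries apart above Control were found for VSP1 alone of the 27 tested, beside 4.13% of all genes.

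The VSP1 log2 fold change against Control was 3.29 with C18:0 CoA (95% interval 1.44 to 5.14, edgeR unadjusted p = 0.00147), 2.49 with C18:1 CoA (0.55 to 4.43, unadjusted p = 0.0148) and 2.71 with C16:0 CoA (0.64 to 4.78, unadjusted p = 0.0129). Over the 3 acyl-CoAs it was 2.83 (1.16 to 4.50, edgeR unadjusted p = 0.00218), with an adjusted p of 1.000 over all genes. Fitted without the filter, the values against Control were 3.29, 2.47 and 2.74 for C18:0 CoA, C18:1 CoA and C16:0 CoA, at edgeR unadjusted p-values of 0.00269, 0.0242 and 0.0167. From reads pooled over each group, the ratio to Control was 10.2 with C18:0 CoA (95% exact counting interval 3.49 to 40.3, from 24 reads against 4), 6.39 with C18:1 CoA (2.06 to 26.3, 16 against 4) and 6.87 with C16:0 CoA (1.98 to 30.0, 10 against 4). Those intervals cover counting error alone. Within the Control's i7 index the log2 fold change was 3.31 with C18:0 CoA and 2.63 with C18:1 CoA. With the index as a covariate the C16:0 CoA value was 3.001 at an unadjusted p of 0.0688. With lane as a factor the VSP1 values were 3.18, 3.23 and 2.50 for C18:0 CoA, C18:1 CoA and C16:0 CoA. In that fit C18:0 CoA replicates 2 and 3 and C18:1 CoA replicates 1 and 2 were each alone in a lane. Almost no freedom is then left to estimate error, so the lane fit could not test these values. Without C16:0 CoA replicate 2 the C16:0 CoA value was 2.02 at an unadjusted p of 0.0772. Without Control replicate 1 the C18:1 CoA and C16:0 CoA values were 1.96 and 2.20, at unadjusted p-values of 0.102 and 0.0772. With the 3 shallow libraries left out VSP1 fell below the filter on low counts, so no value was had.

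VSP1 and VSP2 are neighbouring copies on chromosome 5 whose coding sequences are 89.5% identical. A stretch of 60 coding bases from RefSeq (TAIR10.1, minus strand), coding bases 64 to 123 of VSP1 and 49 to 108 of VSP2, is shown because it is the kind of stretch that assigns a read to one copy or the other, with the 4 differing bases in capitals.
VSP1: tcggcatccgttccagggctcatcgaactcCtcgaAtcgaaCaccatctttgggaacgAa
VSP2: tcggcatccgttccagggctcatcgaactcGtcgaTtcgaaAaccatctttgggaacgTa
Only 5 of 764 windows of 50 bases in VSP1 (0.654%) occur in VSP2, so most full-length matches can be told apart. VSP2, also a vegetative storage protein gene, had 2, 5 and 0 reads in the Control libraries, 4, 0 and 1 for C18:0 CoA and 0 in all C18:1 CoA and C16:0 CoA libraries. A pooled count of 0 allows up to 0.382 CPM with C18:1 CoA and 0.658 CPM with C16:0 CoA, beside 0.559 CPM in Control. The 95% exact counting interval of the ratio to Control reached from 0 to 1.11 with C18:1 CoA, from 0 to 1.91 with C16:0 CoA and from 0.303 to 4.43 with C18:0 CoA. Each includes 1, so a difference was not detectable at this depth.

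The 250 bases before the VSP1 start in RefSeq (TAIR10.1, chr5:8509202-8509451, minus strand) are shown because VSP1 had the largest difference and they hold the T/G-box, again as CACGTT in capitals, 170 bases before the start.
VSP1 promoter: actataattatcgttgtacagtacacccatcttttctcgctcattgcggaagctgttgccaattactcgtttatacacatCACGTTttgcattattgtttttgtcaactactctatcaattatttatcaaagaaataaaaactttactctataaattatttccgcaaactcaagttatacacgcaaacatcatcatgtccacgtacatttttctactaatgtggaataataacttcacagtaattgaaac
In the deposited table the gene models of AOS, MYC2 and VSP1 begin 200, 419 and 244 bases farther downstream than in RefSeq. Searched on both strands in the 250 bases before each gene's start, CACGTG was present in 4 of 35 jasmonate genes (11.4%; AOS, JAZ2, JAZ7 and JAZ8), beside 6.49% of 27443 protein-coding genes. AACGTG was present in 8 of 35 (22.9%; DAD1, LOX4, AOC1, JAZ5, JAZ6, JAZ12, MYC2 and VSP1), beside 7.54%. The promoters of LOX2, AOC2 and CYP94C1 held neither in this window. Genes with a motif include VSP1, AOS and MYC2, whose values differ in direction, and JAZ8 and DAD1, which had almost no reads.

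CORI3, a cystine lyase gene induced by coronatine and jasmonate, read 10.9, 8.72 and 7.72 CPM in Control and 15.4, 8.77 and 25.04 for C18:0 CoA, where the groups overlapped. Its log2 fold change with C18:0 CoA was 0.91 (95% interval -0.02 to 1.84, edgeR unadjusted p = 0.0553). With C18:1 CoA it read 0, 11.7 and 12.6 CPM and with C16:0 CoA 8.55, 8.88 and 15.2. TAT3 had 4 reads in all.

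Markers of other tissues and of handling were set beside these values. The 2 seed markers summed to 0.203 to 0.772 CPM in Control, 1.61 to 27.1 with C18:0 CoA, 0 to 5.90 with C18:1 CoA and 0 to 2.25 with C16:0 CoA. Nearly all their reads were of CRA1, with 90 against 3 of OLEO1. They were high in the C18:0 CoA libraries in which VSP1 was high too. With C16:0 CoA, whose replicate 2 had the highest VSP1 level of all libraries, they did not exceed 2.25 CPM. Their part in the VSP1 value was not tested. The 4 flower markers, VSP1 being known as high in flowers, summed to 6.08 to 12.4 CPM in Control. They summed to 3.51 to 8.04, 5.15 to 11.8 and 3.38 to 7.10 CPM in the C18:0 CoA, C18:1 CoA and C16:0 CoA groups. Most of the Control sum was SEP3, which averaged 7.66 CPM in Control and 2.98 with C18:1 CoA. AP3 and PI, with 19 and 16 reads in all, averaged 0.173 and 0.361 CPM in Control and 2.66 and 2.28 with C18:1 CoA. AG had 6 reads. The part of the flower markers in the VSP1 value was not tested. The 9 touch and wounding genes, which rise on handling, summed to 748 to 926 CPM in Control. With C18:0 CoA, C18:1 CoA and C16:0 CoA they summed to 654 to 1031, 524 to 835 and 518 to 1119, all 9 with reads. Most of that sum was TCH3 and TCH4, at 419 and 203 CPM in Control. CML38, a calmodulin-like gene of this list, averaged 15.1 CPM in Control and 32.4, 42.5 and 38.1 CPM with C18:0 CoA, C18:1 CoA and C16:0 CoA, at log2 fold changes of 1.12, 1.33 and 1.34 (edgeR unadjusted p = 0.00895, 0.00302 and 0.00276). With C16:0 CoA the log2 fold change was 0.97 for TCH2 (edgeR unadjusted p = 0.0228) and -0.81 for TCH4 (unadjusted p = 0.0245), and with C18:1 CoA it was -0.73 for WRKY33 (unadjusted p = 0.0182). The part of these genes in the VSP1 value was not tested. The 8 circadian clock genes summed to 452 to 499 CPM in Control and 420 to 470, 428 to 550 and 314 to 513. The 6 root markers summed to 412 to 645 CPM in Control and 333 to 410 with C18:1 CoA, just below the Control. Libraries were apart in this way for 5.15% of single genes. With C18:0 CoA and C16:0 CoA the root markers summed to 470 to 539 and 435 to 470 CPM, within the Control range. With C18:1 CoA the log2 fold change was -0.96 for EXPA7 and -0.59 for PRP3 (edgeR unadjusted p = 0.0117 and 0.0252). For the other root markers the edgeR unadjusted p with C18:1 CoA was 0.135 or more. PRP3 was at -0.52 with C16:0 CoA too (edgeR unadjusted p = 0.0466), where the other root markers had an unadjusted p of 0.05995 or more. With C18:0 CoA each had 0.0959 or more. The part of these markers in the C18:1 CoA and C16:0 CoA values was not tested.

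**Figure D3:**
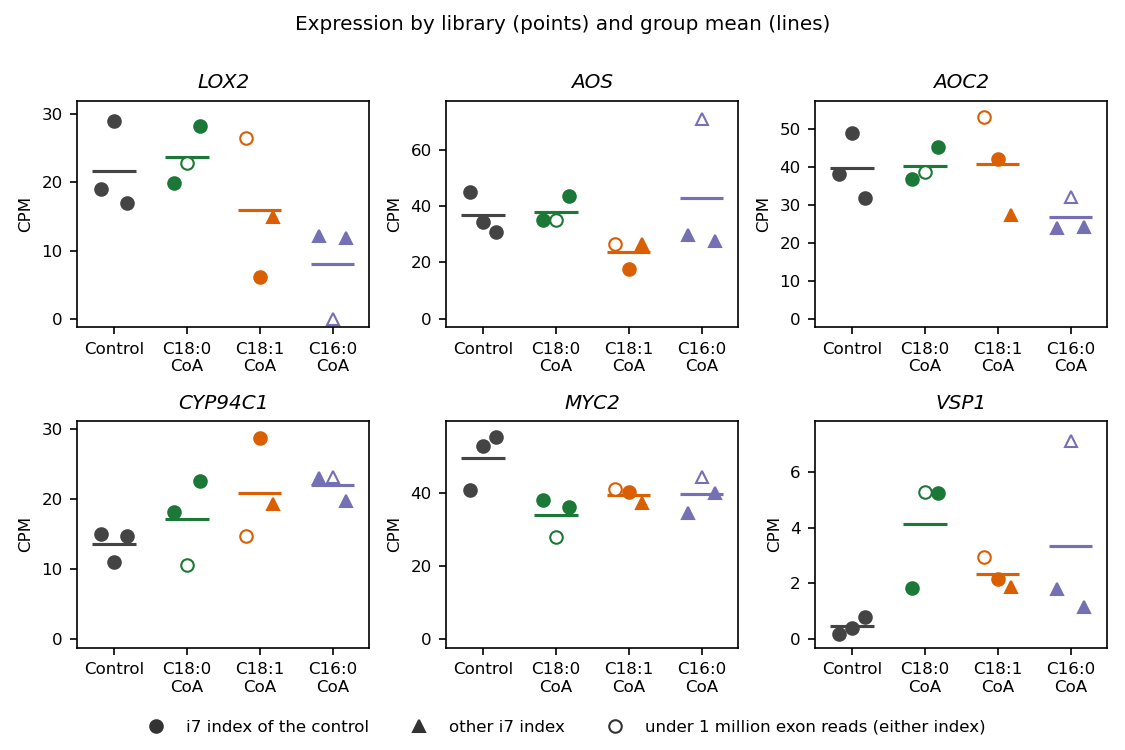
CPM in each of the 12 libraries for the 6 jasmonate genes with an unadjusted p under 0.05 in a pair of groups; lines are group means, circles and triangles are the 2 i7 indexes, and open symbols are libraries under 1000000 exon reads. VSP1 is at 0.772 CPM or less in Control and at 1.13 CPM or more in every treated library. The 3 C18:1 CoA libraries of AOS are below all others, with 9 AOS reads in replicate 1.

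The acyl-CoAs were given at the same concentration and time, so they were also compared with each other, in 3 pairs. No jasmonate gene passed in any of them (0 of 27, beside 0% of all genes). C18:1 CoA differs from C18:0 CoA by a double bond, and AOS was the 1 of 27 genes with an unadjusted p under 0.05 in that pair, beside 2.64% of all genes, at a log2 difference of -0.74 (95% interval -1.44 to -0.05, edgeR unadjusted p = 0.0374). C16:0 CoA differs from C18:0 CoA by chain length, and its libraries also all carry the other i7 index. LOX2 and AOC2 were the 2 of 27 in that pair, beside 2.11%. With the index in the model there were 0 of 27, beside 1.70%. LOX2 differed by -1.28 (interval -2.34 to -0.21, edgeR unadjusted p = 0.0214) and AOC2 by -0.64 (interval -1.24 to -0.05, edgeR unadjusted p = 0.0350), the AOC2 value being 0.10 once the i7 index is in the model. C18:1 CoA differs from C16:0 CoA in both, and AOS was the 1 of 27, beside 2.84%, at -0.77 (interval -1.49 to -0.05, edgeR unadjusted p = 0.0368), a value that was -0.33 without C16:0 CoA replicate 2.

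In these pairs the libraries of C18:1 CoA lay below all those of C18:0 CoA for 1 of 27 genes, AOS, beside 5.07% of all genes, and above for 0 of 27 beside 4.82%. Those of C16:0 CoA lay below all those of C18:0 CoA for LOX2 and AOC2 (2 of 27 beside 4.17%) and above for NINJA (1 of 27 beside 3.65%). Those of C18:1 CoA lay below all those of C16:0 CoA for AOS and AOC4 (2 of 27 beside 4.29%) and above for MYC3 (1 of 27 beside 3.81%).

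VSP1 did not differ between acyl-CoAs beyond its error. The log2 difference was -0.80 for C18:1 CoA against C18:0 CoA (interval -2.39 to 0.78), -0.58 for C16:0 CoA against C18:0 CoA (-2.26 to 1.09) and -0.22 for C18:1 CoA against C16:0 CoA (-2.001 to 1.56). These intervals are too wide to show that the 3 acyl-CoAs act alike on it. CYP94C1 differed by 0.29 (-0.39 to 0.97), 0.25 (-0.45 to 0.95) and 0.04 (-0.65 to 0.74) in the same order. Over the 27 genes, 26, 25 and 26 of the intervals in these 3 pairs included 0.

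**Figure D4:**
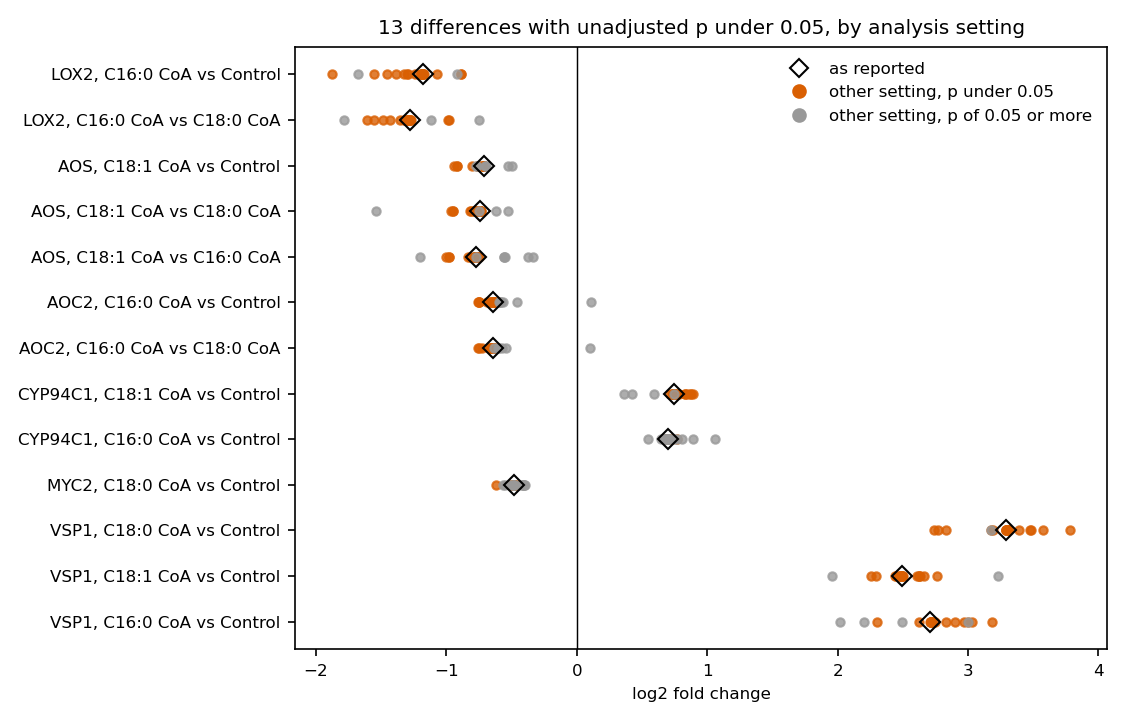
Log2 fold changes of the 13 gene-by-comparison values with an unadjusted p under 0.05, as reported (diamonds) and under each other setting (points; orange where the unadjusted p stayed under 0.05). All but the 2 AOC2 values keep their sign in every setting; AOC2 turns to 0.11 and 0.10 once the i7 index is in the model.

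Of 42 other genes of the jasmonate pathway, covering further turnover enzymes, beta-oxidation, transport, co-repressors and downstream factors, 26 were tested. None passed against Control or between acyl-CoAs (0 of 26), and their median log2 fold change was -0.07, -0.07 and -0.15 for C18:0 CoA, C18:1 CoA and C16:0 CoA. The lowest p in the test of any difference among the 4 groups belonged to AT2G38240, annotated in RefSeq as an Fe(II)-dependent oxygenase. It was at 14.0 ± 4.10 CPM in Control and 17.6 ± 3.94 with C18:0 CoA, and at 4.57 ± 3.55 with C18:1 CoA and 5.58 ± 2.32 with C16:0 CoA (unadjusted p = 0.00261, edgeR adjusted p = 1.000). All libraries of the latter groups lay below all libraries of the former, and the share of all genes with this pattern was not counted. Libraries apart below Control occurred for 3 of 26 with C18:1 CoA, beside 5.15% of all genes. With C16:0 CoA they occurred for 5 of 26, beside 5.95%. The log2 fold change of AT2G38240 was -1.53 with C18:1 CoA and -1.24 with C16:0 CoA, but 0.56 with C16:0 CoA when the i7 index was a covariate. ACX1, a peroxisomal acyl-CoA oxidase that takes part in the beta-oxidation of jasmonate precursors, was at 190 ± 7.36 CPM in Control, 180 ± 15.8 with C18:0 CoA, 148 ± 16.4 with C18:1 CoA and 152 ± 30.0 with C16:0 CoA. Its unadjusted p for any difference was 0.219. The next 3 by that test had higher p still. JAM1, a bHLH repressor of jasmonate responses, was at 11.5 ± 2.29 CPM in Control and 7.89 ± 4.31, 6.81 ± 1.85 and 6.32 ± 1.94 with C18:0 CoA, C18:1 CoA and C16:0 CoA. ST2A, which sulphates hydroxyjasmonate, was at 489 ± 33.8 CPM in Control and 568 ± 7.39, 469 ± 98.2 and 442 ± 62.2. RGL3, a DELLA protein gene, was at 4.49 ± 2.69 CPM in Control and 3.95 ± 0.469, 5.28 ± 0.845 and 7.74 ± 7.37. For JAM1, ST2A and RGL3 the unadjusted p was 0.226, 0.287 and 0.316.

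The authors' deposited table holds FDR values of Baggerley's test, which compares proportions, for the same pairs. In the authors' deposited table VSP1 had an FDR of 0.00115 for C18:0 CoA and 0.0419 for C18:1 CoA against Control, and was the only one of the 35 genes under 0.05 in each. There, 3.65% and 3.22% of all 28642 genes were under 0.05. For C16:0 CoA against Control the authors' deposited table had none of the 35 under 0.05, the lowest being MYC2 at 0.0911, beside 2.90% of all genes. Between acyl-CoAs the authors' deposited table had 1 of the 35 under 0.05 for C18:1 CoA against C18:0 CoA, LOX2 at 0.0286, beside 3.27% of all genes. It had 1 for C16:0 CoA against C18:0 CoA, AOC2 at 0.00108 in the authors' deposited table, beside 1.22%. For C16:0 CoA against C18:1 CoA the authors' deposited table had 0 of the 35, the lowest being AOC2 at 0.0515, beside 2.17%.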

How the data were processed

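Poly(A) RNA of 12 libraries was sequenced as stranded paired-end reads of 50 cycles, per the labels' protocols. The deposited table holds raw counts of exon, intron and whole-gene reads per gene, per the file headers. Reads were mapped to TAIR10, per the submitters' processing notes. Which aligner and annotation were used, and whether counting used strand, is not given in the sources used here. Unique and total exon counts were identical in every cell. FDR-corrected p-values and weighted-proportion differences, a score here, are the authors' deposited results of Baggerley's test, per the file headers. Normalized columns were not used. Other deposited columns (positions, lengths) served as annotation.

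Exon counts of 17036 genes kept by filterByExpr were fitted in 1 quasi-likelihood model of all 12 libraries with TMM scaling (edgeR 4.0.16, R 4.3.3), two-sided, adjusted over all genes, at a threshold of 0.05. The common coefficient of variation was 0.229. CPM and RPKM values use TMM-scaled library sizes, with SD over n = 3, and their intervals are at 95%. The design text calls the replicates biological. Libraries of a pair of groups are apart when their ranges do not overlap. On simulated data (16796 genes) the test made 7 false calls. Other settings, tried with limma 3.58.1 and DESeq2 1.42.0 among others, are in the closing section. Symbols, promoters and coding sequences came from RefSeq TAIR10.1, and gene coordinates from the deposited table with starts counted from 1. Of the table's genes, 28009 matched RefSeq. A line that named no gene held 0 exon counts and was left out.

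The 35 genes and the lists of other pathway genes and markers were chosen with earlier results of these data known. Values per library are given for COI1, JAR1, MYC2, LOX2, AOS, OPR3, JAZ1, JAZ10, VSP1, VSP2 and each of the 35 with an unadjusted p under 0.05 in a pair of groups. MYC3 and CORI3 were added after their values were seen. Of the other pathway genes, the 5 with the lowest p for any difference are named.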

Additional observations from a re-analysis of the deposited data

Results flagged for a closer look

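Reads in the intron class were not part of the comparisons above. For AOC3, 8.51% of the whole-gene reads with C18:1 CoA were intron reads (16 of 188), beside 1.16% in Control (3 of 258). The C18:1 CoA libraries were at 15.4%, 11.6% and 3.75% and the Control libraries at 0.752%, 1.96% and 0%. This is listed because all 3 treated libraries lay above all Control libraries in data outside the main measurement, as they did for 2.92% of genes with at least 5 intron reads with C18:1 CoA.

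For MYC3, 30.0% of the whole-gene reads with C16:0 CoA were intron reads (76 of 253), beside 18.5% in Control (144 of 777). The C16:0 CoA libraries were at 28.9%, 57.1% and 23.7% and the Control libraries at 21.4%, 15.8% and 14.1%, again apart, as for 4.11% of genes with C16:0 CoA. MYC3 is listed with 1 exon in the deposited table and in RefSeq, where no other gene overlaps it, while 33 of the 35 jasmonate genes had an intron share under 3% and the median of all genes was 1.80%. The cause was not tested.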

How the results depend on the processing

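No jasmonate gene passed in any comparison under any of the settings tried (0 of those tested). No gene of the whole table passed in the fits as reported, and few did elsewhere. Without the low-count filter 1 gene passed for C18:1 CoA against Control, 1 for C18:1 CoA against C16:0 CoA and 2 for any difference. With DESeq2 those counts were 2, 1 and 2, and with limma voom 1 passed for C18:1 CoA against Control. Without the libraries under 1000000 exon reads 5 passed for C18:1 CoA, 2 for C16:0 CoA, 1 for C18:1 CoA against C16:0 CoA and 1 for any difference. With lane as a factor 1 passed for C18:0 CoA, 2 for C16:0 CoA, 1 for C18:1 CoA against C16:0 CoA, 1 for the mean of the 3 acyl-CoAs and 2 for any difference. The lane fit leaves almost no freedom to estimate error, since several libraries were alone in a lane, so its counts decide nothing. With the Control's i7 index alone 2 passed for C18:1 CoA. With the length trend removed 1 passed for C18:1 CoA and 1 for any difference. Leaving out 1 replicate at a time gave 0 to 1 for C18:1 CoA and for any difference (1 without C16:0 CoA replicate 2), and 0 to 1 for C18:1 CoA against C16:0 CoA (1 without C18:0 CoA replicate 3). The cause was not tested.

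The median of the jasmonate genes for C16:0 CoA against C18:0 CoA, 0.12 as reported, was -0.0745 without the filter, where 34 genes enter (0.11 over the 27), and -0.0507 with limma voom. For C18:1 CoA against Control, -0.07 as reported, it was 0.11 with the i7 index as a covariate, 0.12 within the Control's index and -0.1498 to 0.1039 without 1 replicate (highest without C18:1 CoA replicate 3). For C18:1 CoA against C18:0 CoA, -0.06 as reported, it was 0.12 with the covariate, 0.12 within the Control's index and -0.0811 to 0.1223 without 1 replicate (highest without C18:1 CoA replicate 3). The index restriction gave no value for C16:0 CoA, which has no library with that index. With a replicate block 0 jasmonate genes and 0 genes passed in every comparison. Same-numbered libraries correlated at -0.23 to 0.23, over 0.1 in 5 of 18 pairs. Of the 12 libraries, 5 correlated best with their own number, so no pairing by number was seen. The libraries differ widely in depth, so a weak pairing could have gone unseen. Of the fold changes of single jasmonate genes, 49 moved by more than the spread between replicates and 1873 did not. Depth limits LOX3, LOX4, JAZ5, JAZ7, JAZ8, VSP2 and TAT3, at 61 reads or fewer each.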
